A study of Homo sapiens with 12 samples.

Results

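The transcription factor NF-kB and the inhibitors that hold it back were followed at the RNA level in HT1080 cells, an established human fibrosarcoma line. The genes were 10, chosen by symbol: the subunit genes RELA, NFKB1, NFKB2, RELB and REL, and the inhibitor genes NFKBIA, NFKBIB, NFKBIE, TNFAIP3 and BCL3. They were 10 of the 46427 genes in the table, and all 10 passed the filter on low counts, as did 16283 genes in all. The cells had received 1 of 4 siRNA treatments, with 3 libraries each, which are named here as in the labels: Scrambled (control siRNA), siTRIP12, siOTUD5, and siTRIP12+siOTUD5, the double knockdown. TRIP12 encodes a ubiquitin ligase and OTUD5 a deubiquitylase, an enzyme that takes ubiquitin off proteins. All groups shared the cell line, and all had received siRNA. No cytokine or other stimulus is named in the labels, so the levels are those of cells not said to have been stimulated. The labels give no siRNA sequence or amount, and they do not say whether the replicates came from separate cultures, so that p-values measure the spread between these libraries, which may be technical.

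NF-kB factors are dimers of Rel-family subunits. In resting cells IkB proteins keep them in the cytoplasm, until a kinase complex marks the IkB for ubiquitin-dependent destruction and the dimer enters the nucleus. In the alternative pathway the kinase NIK, encoded by MAP3K14, leads to the processing of the NFKB2 precursor, whose product pairs with RELB. NF-kB then switches on genes of its own inhibitors, above all NFKBIA and TNFAIP3, and of some of its own subunits, which closes a negative feedback loop. In this account NFKBIA, NFKBIE, TNFAIP3 and BCL3 are grouped as inducible feedback genes, NFKB1, NFKB2, RELB and REL as inducible subunits, and RELA and NFKBIB as constitutive genes. BCL3 is an atypical IkB protein that acts in the nucleus on NFKB1 and NFKB2 products and can activate as well as repress.

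The promoters of the members were searched for the kB consensus, the kind of sequence that NF-kB dimers are known to bind. Windows from 250 bases before to 50 bases after the annotated start (RefSeq, GRCh38.p14) were at hand for 8 of the 10 genes, with RELB and NFKBIE not among them. The 10-base kB consensus, searched on both strands, matched in the windows of 7 of the 8, and RELA was the gene without a match. The match of BCL3 begins 2 bases after the start and is not printed. Over the whole reference, 13.3% of 27305 genes had at least 1 window with a match, and 11.3% of 35116 windows did. The 6 stretches that follow are shown so that the letters of the matches can be compared between roles: NFKBIA and TNFAIP3 are feedback genes, NFKB2, NFKB1 and REL are inducible subunits, and NFKBIB is grouped as constitutive and holds a match too. Each is 30 bases long and written 5′ to 3′ on the strand of its gene, with the match in capitals. The matches of NFKBIA and TNFAIP3 fit the consensus on the opposite strand, so their capitals are printed as its reverse complement. Those of NFKB2, NFKB1, REL and NFKBIB fit it on the strand of the gene. Letters can be compared between these 2 sets only after that reversal. On the other strand, a match shifted by 1 base overlaps the one printed for REL and the one printed for NFKBIB.
NFKBIA: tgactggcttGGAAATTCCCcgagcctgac
TNFAIP3: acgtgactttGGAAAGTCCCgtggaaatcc
NFKB2: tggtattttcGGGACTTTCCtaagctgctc
NFKB1: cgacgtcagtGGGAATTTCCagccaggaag
REL: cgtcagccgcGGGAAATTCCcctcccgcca
NFKBIB: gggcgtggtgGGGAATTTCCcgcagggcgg

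The NFKBIA stretch lies at chr14:35404811-35404840 on the minus strand and its match begins 81 bases before the start. For TNFAIP3 the stretch is chr6:137867182-137867211 on the plus strand, with a match 67 bases before the start and a second one 55 bases before it. The NFKB2 stretch, chr10:102395674-102395703 on the plus strand, has its match at 21 bases before the start, and those 10 letters were found in 67 of all windows (0.191%). NFKB2 had further matches, 176 bases before that start and 107, 106 and 78 bases before another annotated start. The one at 106 bases is on the other strand and overlaps the one at 107. Those of NFKB1 (chr4:102501300-102501329), REL (chr2:60881517-60881546) and NFKBIB (chr19:38899931-38899960), all on the plus strand, begin 49, 47 and 28 bases before an annotated start. NFKB1 and NFKBIB had 2 windows each, and in each gene only 1 of them held a match. The NFKBIB window with the printed match also held one that begins 38 bases after the start. A match describes the letters of the window and does not show that a factor binds there.

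Library totals ran from 37912312 to 43881471 reads. TRIP12 was at 346, 342 and 276 CPM (read counts normalised to the library total) in Scrambled, at 38.9, 46.2 and 40.2 CPM in siTRIP12, at 314, 315 and 317 CPM in siOTUD5, with the double knockdown at 54.4, 50.1 and 55.0 CPM. OTUD5 ranged from 58.5 to 60.5 CPM in Scrambled and from 73.5 to 74.0 CPM in siTRIP12, while the libraries with siOTUD5 alone gave 10.6 to 12 CPM and those of the double knockdown 9.62 to 12.3 CPM. Each knockdown thus showed in all libraries that carried its siRNA, with an exact two-sided permutation p of 0.1, the smallest that 3 libraries against 3 allow. OTUD5 was higher in siTRIP12 than in Scrambled (log2 fold change 0.30, SE 0.07, edgeR adjusted p = 0.00346). The part of this rise in the results was not tested. Of 8 mesenchymal markers, 6 were above 10 CPM in every library and 2 stayed under 1 CPM in all of them. The sum over the 8 was lowest in siTRIP12 (4440 to 4890 CPM, with 5080 to 6170 CPM elsewhere). Of 8 epithelial markers, 7 stayed under 1 CPM, with KRT5, KRT14, OVOL1 and GRHL2 at 0. Among the leukocyte markers, MS4A1 was at 0, the pan-leukocyte gene PTPRC did not exceed 0.103 CPM, and the sum was nearly all CD68, a lysosomal gene at 87.6 to 104 CPM in siTRIP12 and 59.4 to 74.5 CPM elsewhere. Scrambled replicate 3 had the lowest TRIP12 and REL of its group, and values without it are given for REL and for member calls that change without it.

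Levels can be compared between genes only per length, for which the deposited FPKM (values scaled to transcript length and library size) were used. In Scrambled, NFKB2 was the highest of the 10 at 48.1 ± 0.999 FPKM (mean ± SD, n = 3 here and below). RELA followed at 29.5 ± 2.15 FPKM. NFKBIB at 19.5 ± 1.21 FPKM and NFKB1 at 19.2 ± 1.03 FPKM came next and did not differ beyond their spread. NFKBIA stood at 16.5 ± 1.29 FPKM, RELB at 9.13 ± 0.633 FPKM, NFKBIE at 5.02 ± 0.253 FPKM and BCL3 at 4.14 ± 0.329 FPKM. TNFAIP3 at 1.36 ± 0.178 FPKM and REL at 0.817 ± 0.225 FPKM were the lowest, so the range between members was much wider than any change of a member described below. Of the summed FPKM of the 5 subunits, NFKB2 made up 45.1% in Scrambled, RELA 27.6%, NFKB1 18.0%, RELB 8.56% and REL 0.761%.

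**Figure D1:**
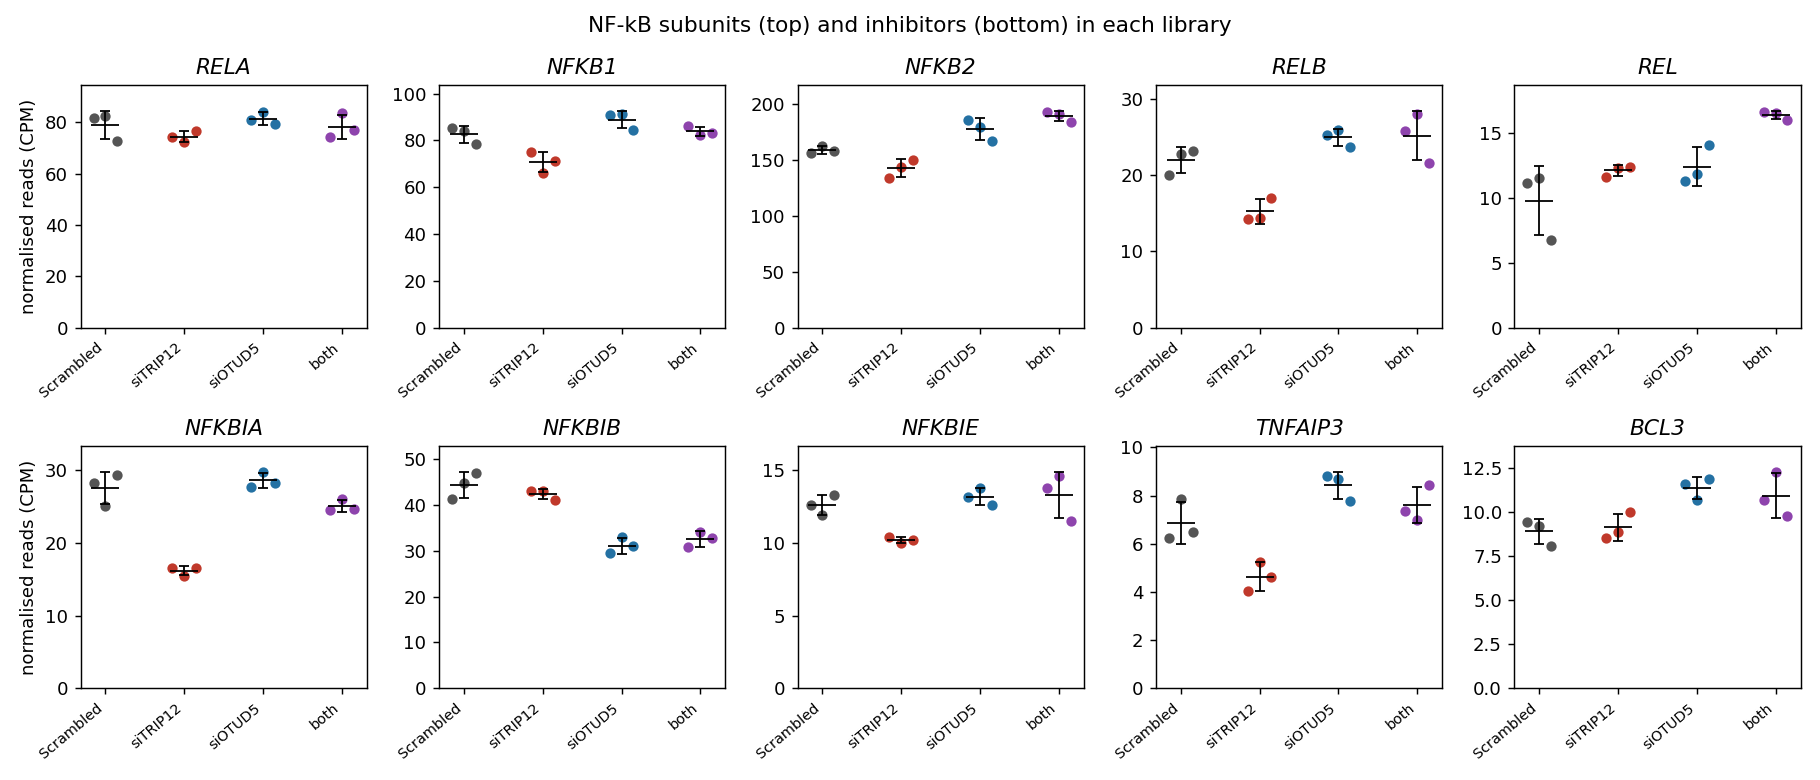
Normalised read counts (CPM, y axis from 0) of the 5 subunit genes (top row) and 5 inhibitor genes (bottom row) in each library of the 4 groups; "both" is siTRIP12+siOTUD5, points are libraries, horizontal lines and bars are mean and SD of 3 libraries. NFKBIA lies at 15.5 to 16.6 CPM in siTRIP12 and at 24.5 CPM or above in all other libraries, NFKBIB is at 34.2 CPM or below in the 6 libraries with siOTUD5 and at 41.2 CPM or above in the others, and RELA lies between 72.3 and 84.2 CPM throughout.

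Knockdown of TRIP12 was compared with Scrambled to see which members respond to loss of the ligase. Of the 10 genes, 6 fell and 4 were not called; 31.9% of all tested genes were called in either direction, 14.5% higher and 17.4% lower (edgeR quasi-likelihood test, Benjamini-Hochberg adjusted p under 0.05 over all 16283 genes). The fallen genes were 3 of the 4 feedback genes and 3 of the 4 inducible subunits. Neither constitutive gene was called. The median log2 fold change was -0.435 over the feedback genes, -0.189 over the inducible subunits and -0.0774 over the constitutive pair, beside 0.00686 over all tested genes. Leaving out Scrambled replicate 3, 6 members were called but not the same ones: RELA was called lower and NFKBIE was no longer called. Leaving out siTRIP12 replicate 2, 3 members were called, RELB, NFKBIA and TNFAIP3. Over all genes 2367 were higher and 2827 lower, a split that upper-quartile factors turned to 2964 and 2232, moving the median of all genes to 0.05. The marker sums given above also moved with siTRIP12 (mesenchymal lower, CD68 higher), and their part in the member changes was not tested. In such bulk samples fewer cells of a kind and less RNA per cell cannot be told apart.

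NFKBIA, the gene of the IkB protein that turns over fastest after a stimulus, changed most. It was at 28.2, 25.1 and 29.4 CPM in Scrambled and at 16.5, 15.5 and 16.6 CPM in siTRIP12. Every siTRIP12 library lay below every Scrambled library, and the mean was 58.9% of the control. The log2 fold change was -0.76 ± 0.07 (SE; edgeR adjusted p = 5.06e-07), which was rank 216 by p among all genes tested. TNFAIP3, the gene of a ubiquitin-editing enzyme that shuts down signalling to NF-kB, was at 6.24, 7.85 and 6.50 CPM in Scrambled and at 4.03, 5.23 and 4.64 CPM in siTRIP12. Its groups did not overlap either, and it fell by 0.57 ± 0.13 on the log2 scale (edgeR adjusted p = 0.00281). NFKBIE, another cytoplasmic IkB gene, went from 12.6, 11.9 and 13.3 CPM to 10.4, 10 and 10.2 CPM. This is a smaller change, log2 -0.30 ± 0.09 (edgeR adjusted p = 0.019), and the call was lost without Scrambled replicate 1 (adjusted p = 0.0521), Scrambled replicate 3 (0.0522) or siTRIP12 replicate 2 (0.0713). BCL3, the fourth feedback gene, was at 9.44, 9.19 and 8.09 CPM in Scrambled and at 8.55, 8.89 and 10 CPM in siTRIP12. Its groups overlapped, with log2 0.04 ± 0.11 (edgeR adjusted p = 0.819).

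Among the subunits, RELB, the partner of the processed NFKB2 product, changed most. It was at 20.1, 22.8 and 23.2 CPM in Scrambled and at 14.3, 14.4 and 17.1 CPM in siTRIP12, without overlap, and fell by 0.53 ± 0.10 on the log2 scale (edgeR adjusted p = 5.1e-04). NFKB1, which encodes a precursor that is cut to a DNA-binding subunit, went from 85.4, 84.0 and 78.4 CPM to 75, 66.1 and 71.1 CPM. The groups did not overlap, and the change was log2 -0.22 ± 0.06 (edgeR adjusted p = 0.00684), lost without siTRIP12 replicate 2 (-0.17, adjusted p = 0.0636). NFKB2 went from 156, 163 and 158 CPM to 134, 144 and 150 CPM. Its fall of log2 -0.16 ± 0.05 (edgeR adjusted p = 0.035) was small and was lost without Scrambled replicate 1 (adjusted p = 0.066) or 2 (0.104) and without siTRIP12 replicate 1 (0.217) or 2 (0.0895). It was also lost with upper-quartile factors (0.142), with no filter (0.0688) and in a fit of only the groups compared (0.106).

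RELA, the main activating subunit of the classical pathway, was at 81.9, 82.5 and 72.9 CPM in Scrambled and at 74.2, 72.3 and 76.8 CPM in siTRIP12. These groups overlapped because of Scrambled replicate 3. The log2 difference was -0.09 ± 0.06 (edgeR adjusted p = 0.294), and without that library it was -0.14 (adjusted p = 0.0429). NFKBIB, an IkB gene that is not known as a strong NF-kB target, was at 41.4, 44.8 and 47.1 CPM in Scrambled and at 43.1, 43.0 and 41.2 CPM in siTRIP12, again with overlap (log2 -0.07 ± 0.07, edgeR adjusted p = 0.496). REL, the subunit best known from lymphoid cells, was at 11.1, 11.5 and 6.76 CPM in Scrambled and at 11.6, 12.3 and 12.4 CPM in siTRIP12. All siTRIP12 libraries lay above the Scrambled ones, with a log2 difference of 0.31 ± 0.15 (edgeR adjusted p = 0.116). It was 0.10 without Scrambled replicate 3 (adjusted p = 0.473) and was called without Scrambled replicate 2 (0.44, adjusted p = 0.0391).

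Knockdown of OTUD5 alone gave fewer calls than siTRIP12, among the members and over all tested genes. The members called were not those that moved most in siTRIP12: NFKBIB fell, NFKB2 and BCL3 rose, and 7 of the 10 genes were not called. Of all tested genes 23.2% were called in this comparison, 11.4% higher and 11.9% lower, so the share of members called was near that. With 1 library of either group left out, 1 to 5 members were called. NFKBIB was at 29.5, 33.0 and 31.0 CPM in siOTUD5, each value below all 3 Scrambled libraries. It was at 70.1% of the control mean, with log2 -0.51 ± 0.07 (edgeR adjusted p = 4.73e-05), and the call held under every alternative run. NFKB2 was at 186, 180 and 167 CPM, all above Scrambled, a rise of log2 0.16 ± 0.05 (edgeR adjusted p = 0.0394). That call was lost without Scrambled replicate 1 (adjusted p = 0.0863), siOTUD5 replicate 1 (0.18) or siOTUD5 replicate 2 (0.122), with no filter (0.0614) and in a fit of only the groups compared (0.0734). BCL3 rose to 11.6, 10.7 and 11.9 CPM without overlap, by log2 0.36 ± 0.11 (edgeR adjusted p = 0.0205). This call was lost without Scrambled replicate 3 (adjusted p = 0.0696), siOTUD5 replicate 1 (0.0667) or siOTUD5 replicate 3 (0.069).

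The other 3 feedback genes were not called in siOTUD5. NFKBIA was at 27.7, 29.8 and 28.3 CPM, inside or just above the range of Scrambled, with log2 0.05 ± 0.07 and an approximate 95% interval of -0.09 to 0.20 (edgeR adjusted p = 0.644). NFKBIE was at 13.2, 13.8 and 12.6 CPM (log2 0.06 ± 0.09). TNFAIP3 at 8.83, 8.67 and 7.78 CPM had a difference of log2 0.30 ± 0.13 (edgeR adjusted p = 0.0981), and without Scrambled replicate 2 it was called (0.40, adjusted p = 0.0399). Of the subunits that were not called, RELA was at 80.9, 84.2 and 79.4 CPM and NFKB1 at 90.7, 91.3 and 84.6 CPM. RELB was at 25.3, 26.0 and 23.8 CPM, all above Scrambled, with log2 0.19 ± 0.10 (edgeR adjusted p = 0.182). REL at 11.3, 11.8 and 14.1 CPM overlapped with Scrambled (log2 0.34 ± 0.15, edgeR adjusted p = 0.10). It was called without Scrambled replicate 2 (0.48, adjusted p = 0.0341) and was 0.14 without Scrambled replicate 3 (adjusted p = 0.373).

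**Figure D2:**
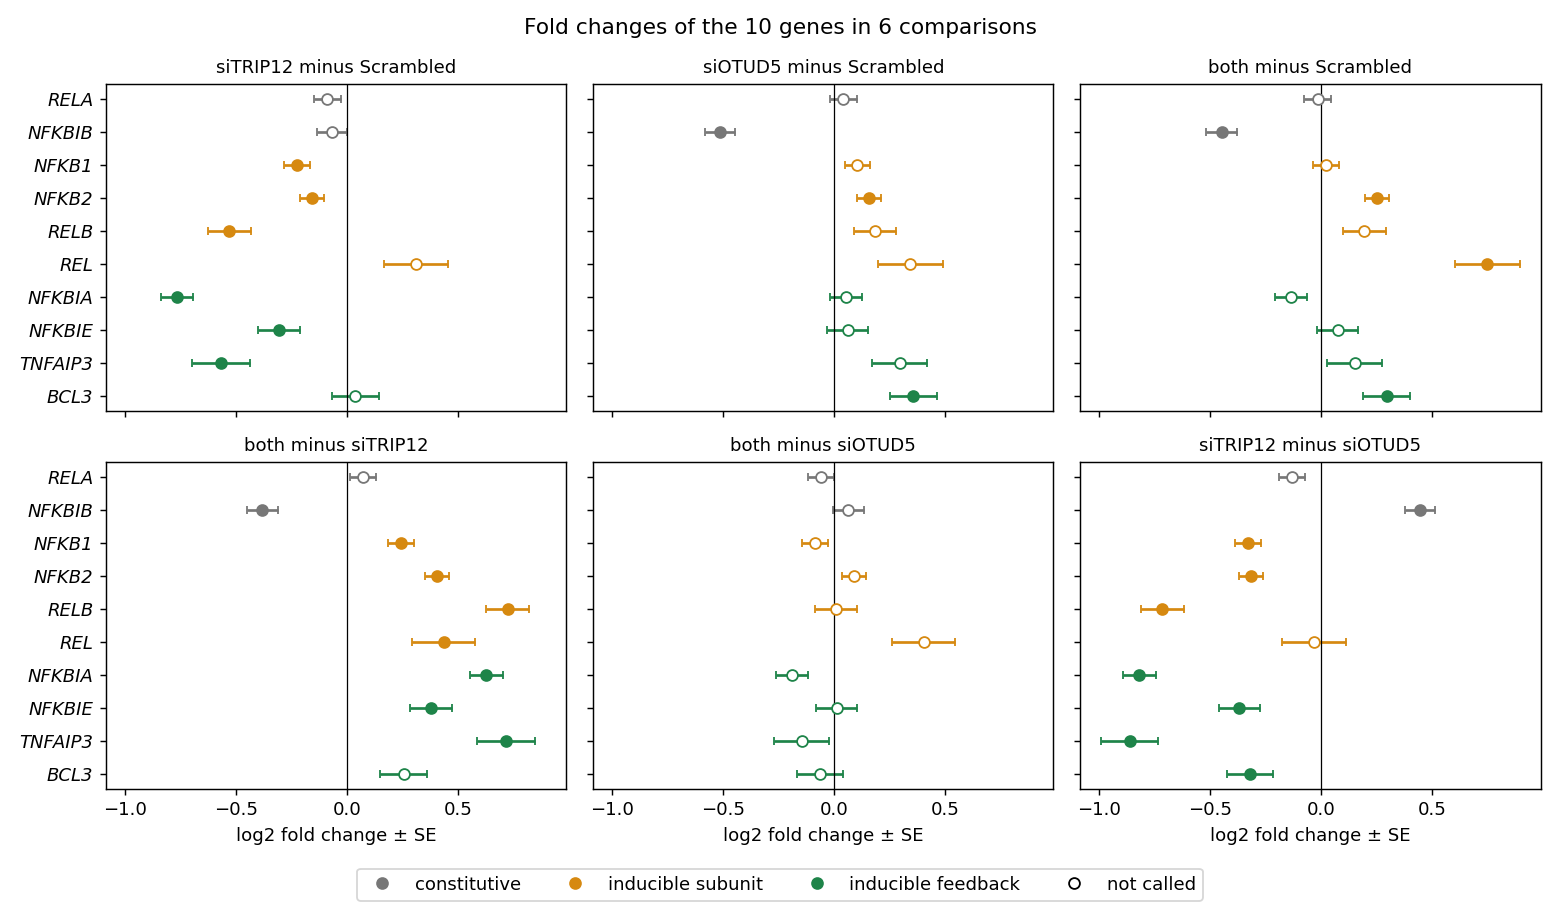
Log2 fold change (x axis) with its SE for each of the 10 genes (rows) in 6 comparisons (panels), coloured by role; filled points passed an edgeR adjusted p of 0.05 and open points did not, and "both" is siTRIP12+siOTUD5. NFKBIA, TNFAIP3 and RELB lie left of 0 in siTRIP12 minus Scrambled (-0.76, -0.57 and -0.53) and right of it in both minus siTRIP12 (0.63, 0.72 and 0.72), and NFKBIB lies left of 0 in each comparison that adds siOTUD5.

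The double knockdown was compared with siTRIP12 alone to see how the members that were low in siTRIP12 stood when OTUD5 was lowered as well. Of the 10 genes, 7 were higher, NFKBIB was lower and 2 were not called; 15.7% of all tested genes were called, 8.78% higher and 6.93% lower. These comparisons share the siTRIP12 libraries with those above. NFKBIA was at 24.5, 26.1 and 24.7 CPM in siTRIP12+siOTUD5, all above siTRIP12, with log2 0.63 ± 0.07 (edgeR adjusted p = 1.98e-05). TNFAIP3 was at 7.38, 7 and 8.46 CPM, without overlap, with log2 0.72 ± 0.13 (edgeR adjusted p = 0.00102). RELB was at 25.9, 28.1 and 21.7 CPM, also without overlap, with log2 0.72 ± 0.10 (edgeR adjusted p = 7.57e-05).

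The other 4 genes that rose over siTRIP12 were NFKB2, NFKB1, NFKBIE and REL. NFKB2 was at 193, 191 and 184 CPM (log2 0.41 ± 0.05, edgeR adjusted p = 6.57e-05). NFKB1 was at 86.0, 82.1 and 83.3 CPM (log2 0.24 ± 0.06, edgeR adjusted p = 0.00786; 0.0524 without siTRIP12 replicate 2). NFKBIE was at 13.8, 14.6 and 11.5 CPM (log2 0.38 ± 0.09, edgeR adjusted p = 0.0102; lost without siTRIP12+siOTUD5 replicate 1, 0.0514, or 2, 0.0539). REL was at 16.6, 16.5 and 16 CPM and rose by log2 0.44 ± 0.14 (edgeR adjusted p = 0.0466), a call lost when any 1 of the 6 libraries compared was left out (0.0967 to 0.139), with upper-quartile factors (0.0522) and with no filter (0.0656). In all 4 genes the groups did not overlap. NFKBIB was at 30.8, 34.2 and 32.8 CPM, below siTRIP12, with log2 -0.38 ± 0.07 (edgeR adjusted p = 0.00102). RELA at 74.3, 83.5 and 77.2 CPM (log2 0.07 ± 0.06, edgeR adjusted p = 0.469) and BCL3 at 10.7, 12.3 and 9.77 CPM (log2 0.26 ± 0.11, edgeR adjusted p = 0.111) overlapped with siTRIP12. TRIP12 itself was less reduced in siTRIP12+siOTUD5 than in siTRIP12 (53.2 ± 2.70 against 41.8 ± 3.92 CPM, log2 0.35 ± 0.08, edgeR adjusted p = 0.00794), and the part of this difference in the results was not tested. CD68 was at 87.6 to 104 CPM in siTRIP12 and at 59.4 to 67.5 CPM in siTRIP12+siOTUD5, and the mesenchymal sum at 4440 to 4890 and 5080 to 5110 CPM, with 3 of the 8 mesenchymal markers called higher. Their part in the member changes was not tested.

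Against Scrambled, the double knockdown left 6 of the 10 genes uncalled; 30.9% of all tested genes were called, 14.7% higher and 16.2% lower. NFKBIA was at 91.1% of the control, log2 -0.14 ± 0.07 with an approximate 95% interval of -0.28 to 0.01 (edgeR adjusted p = 0.171). The same difference was 0.15 ± 0.13 for TNFAIP3, 0.20 ± 0.10 for RELB (called without siTRIP12+siOTUD5 replicate 3, 0.29, adjusted p = 0.0348) and 0.02 ± 0.06 for NFKB1. NFKBIB fell (log2 -0.45 ± 0.07, edgeR adjusted p = 1.02e-04). NFKB2 rose by log2 0.25 ± 0.05 (edgeR adjusted p = 0.00186). REL rose most, by log2 0.75 ± 0.15 (edgeR adjusted p = 9.26e-04), with all 3 libraries above Scrambled, and by 0.54 without Scrambled replicate 3 (adjusted p = 2.92e-04). BCL3 rose by log2 0.30 ± 0.11 (edgeR adjusted p = 0.0426), and that call was lost without Scrambled replicate 2 (0.0617) or 3 (0.135) and without siTRIP12+siOTUD5 replicate 1 (0.0816) or 2 (0.207). It was lost as well with no filter (0.0638), with limma-voom (0.0509) and in a fit of only the groups compared (0.0776).

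When siTRIP12 was added to siOTUD5, 0 of the 10 genes were called by edgeR, while 8.41% of all tested genes were (3.35% higher and 5.07% lower); 2 members had an unadjusted p under 0.05, and limma-voom and DESeq2 called 0 each. Those 2 were REL, higher in all libraries (log2 0.41 ± 0.14, edgeR adjusted p = 0.0941), and NFKBIA, lower in all (log2 -0.19 ± 0.07, edgeR adjusted p = 0.12). A fit of only these 2 groups called both, with adjusted p = 0.00271 for REL and 0.0379 for NFKBIA. RELB differed by log2 0.01 ± 0.10 with an approximate 95% interval of -0.18 to 0.20, and TNFAIP3 by -0.15 ± 0.13.

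The single knockdowns were also compared directly. In siTRIP12, 7 of the 10 genes were lower than in siOTUD5, NFKBIB was higher and 2 were not called; 29.8% of all tested genes were called, 13.9% higher and 15.9% lower. TNFAIP3 differed most, by log2 -0.86 ± 0.13 (edgeR adjusted p = 6.95e-05), followed by NFKBIA at -0.82 ± 0.07 (2.22e-07) and RELB at -0.71 ± 0.10 (2.77e-05). NFKB1, NFKBIE, NFKB2 and BCL3 differed by log2 -0.33, -0.37, -0.32 and -0.32. The BCL3 difference (edgeR adjusted p = 0.029) was lost with upper-quartile factors (0.053) and without siTRIP12 replicate 1 (0.112) or 2 (0.0886) or siOTUD5 replicate 1 (0.0814) or 3 (0.0987). NFKBIB differed by log2 0.45 ± 0.07 (edgeR adjusted p = 9.62e-05).

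Whether a gene responded differently to siTRIP12 with and without siOTUD5 was tested as an interaction, the log2 change of siTRIP12+siOTUD5 from siOTUD5 minus that of siTRIP12 from Scrambled. Of the 10 genes, 2 passed, NFKBIA and RELB, and 8.16% of all tested genes did, 4.61% higher and 3.55% lower (751 and 578 genes, or 553 and 638 with upper-quartile factors). NFKBIA changed by log2 -0.76 when siTRIP12 was given alone and by -0.19 when siOTUD5 was present, and the difference was 0.58 ± 0.10 (edgeR adjusted p = 0.00213, and 3.01e-05 to 0.00973 over the alternatives). RELB changed by -0.53 and by 0.01, a difference of 0.54 ± 0.14 (edgeR adjusted p = 0.022). The RELB call was lost without siTRIP12 replicate 1 (0.058) or 2 (0.0689), siOTUD5 replicate 3 (0.0719) or siTRIP12+siOTUD5 replicate 1 (0.0589) or 2 (0.0551). TNFAIP3 had an interaction of log2 0.42 ± 0.18 (edgeR adjusted p = 0.172) and NFKBIE one of 0.32 ± 0.13 (0.159). NFKB2, at 0.25 ± 0.08 (edgeR adjusted p = 0.0546), was called with DESeq2 (0.0361) and without Scrambled replicate 3 (0.0243) or siTRIP12 replicate 3 (0.0429). For BCL3, REL, RELA, NFKB1 and NFKBIB the interaction lay between log2 -0.10 and 0.14 and was not called.

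**Figure D3:**
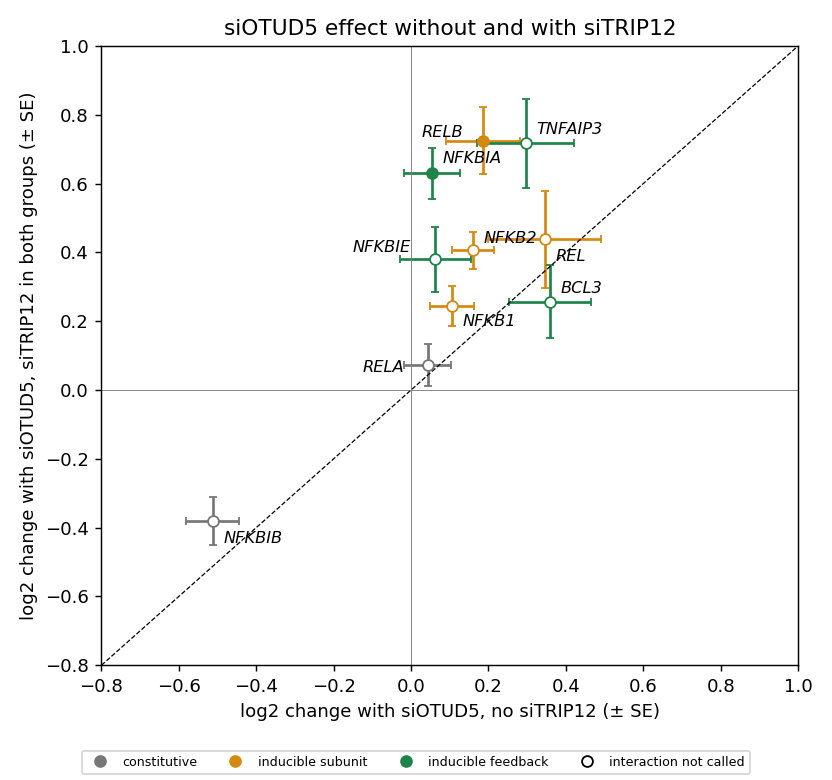
Log2 change with siOTUD5 in the absence of siTRIP12 (siOTUD5 minus Scrambled, x axis) and in its presence (siTRIP12+siOTUD5 minus siTRIP12, y axis) for the 10 genes, with SE bars and a dashed line of equal change; filled points passed the interaction test. NFKBIA (0.05 and 0.63) and RELB (0.19 and 0.72) lie above the line, RELA (0.04 and 0.07) lies near it, and NFKBIB (-0.51 and -0.38) is low on both axes.

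The inducible feedback genes were then set against the constitutive pair within each library, as the mean log2 CPM of NFKBIA, NFKBIE, TNFAIP3 and BCL3 minus that of RELA and NFKBIB. This difference is given without a test, since the members were chosen with results known. It was -2.30 ± 0.0262 in Scrambled, -2.62 ± 0.0583 in siTRIP12, -1.87 ± 0.0533 in siOTUD5 and -1.97 ± 0.0627 in siTRIP12+siOTUD5. The lowest and highest library of Scrambled were at -2.33 and -2.28, and no siTRIP12 library was above -2.58. The siOTUD5 and siTRIP12+siOTUD5 libraries, from -2.02 to -1.81, were all above Scrambled. In siOTUD5 the constitutive pair, which includes the fallen NFKBIB, had a median log2 change of -0.235 and the feedback genes one of 0.18. In siTRIP12+siOTUD5 against Scrambled these medians were -0.231 and 0.113. In each of these comparisons BCL3 was the only feedback gene called and the other 3 were not called, so a rise on the feedback side was not resolved. Within the pair the fall was that of NFKBIB (-0.51 in siOTUD5 and -0.45 in siTRIP12+siOTUD5), with RELA at 0.04 and -0.02. For the inducible subunits the difference from the same pair was -0.542 ± 0.0958 in Scrambled, -0.607 ± 0.0624 in siTRIP12, -0.102 ± 0.0491 in siOTUD5 and 0.00113 ± 0.0973 in siTRIP12+siOTUD5. Here Scrambled and siTRIP12 overlapped. The fall of NFKBIB enters this difference as well. The inducible subunits themselves had a median log2 change of 0.173 in siOTUD5 and 0.223 in siTRIP12+siOTUD5, each against Scrambled.

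**Figure D4:**
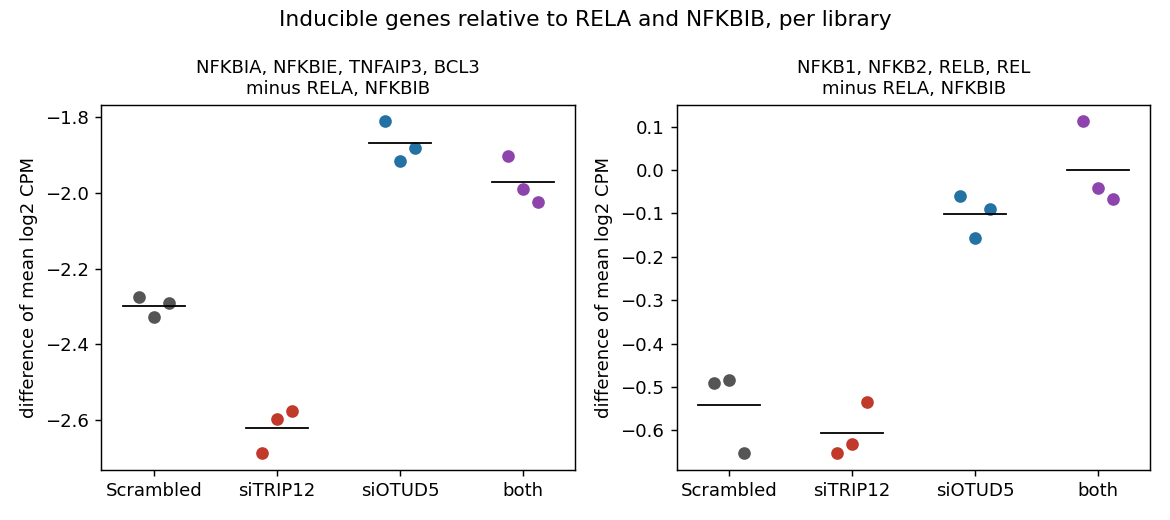
Mean log2 CPM of the 4 inducible feedback genes (left) and of the 4 inducible subunits (right) minus that of RELA and NFKBIB in each library of the 4 groups; points are libraries, lines are group means, and "both" is siTRIP12+siOTUD5. In the left panel the siTRIP12 libraries are lowest (mean -2.62) and the siOTUD5 libraries highest (mean -1.87), and in the right panel Scrambled and siTRIP12 overlap.

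The makeup of the cytoplasmic IkB transcripts shifted with these changes. Of the summed FPKM of NFKBIA, NFKBIB and NFKBIE, NFKBIA made up 40.2 ± 2.20% in Scrambled, 29.9 ± 1.07% in siTRIP12, 47.5 ± 0.731% in siOTUD5 and 43.3 ± 0.576% in siTRIP12+siOTUD5. NFKBIB made up 47.6 ± 2.48%, 57.5 ± 1.23%, 38.0 ± 0.977% and 41.4 ± 0.825% in the same order. NFKBIB was thus the largest of the 3 in Scrambled and siTRIP12, and NFKBIA in the other groups. The share of NFKBIE ranged from 12.2% to 15.2%. Among the subunits the shares moved less: NFKB2 made up 45.6%, 46.1% and 48.6% in siTRIP12, siOTUD5 and siTRIP12+siOTUD5, and RELB was lowest in siTRIP12 at 6.66 ± 0.451%. These are shares of RNA and not of protein.

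Across the 12 libraries, which share groups and normalisation, the member whose log2 CPM followed NFKBIA most closely was RELB (Pearson r = 0.873), with NFKBIE (0.871), NFKB1 (0.865) and TNFAIP3 (0.821) close behind. NFKB2 had 0.671, RELA 0.578, BCL3 0.387, REL -0.129 and NFKBIB -0.416. Among 10859 protein-coding genes with a mean of at least 100 reads, the 5 most like NFKBIA were SDC4 (0.985), NFE2L3 (0.974), KRT18 (0.973), CTNNB1 (0.971) and TPM1 (0.968). SDC4, the gene of the cell-surface proteoglycan syndecan-4, had group means of 155, 82.5, 162 and 132 CPM in Scrambled, siTRIP12, siOTUD5 and siTRIP12+siOTUD5. Those most like NFKB2 were GNB3 (0.962), GART (0.954), JDP2 (0.949), KDSR (0.949) and BTBD10 (0.941). Of these, GNB3 and JDP2 were at low levels, with group means of 3.13 to 4.91 and 2.38 to 5.02 CPM. These correlations are descriptions over 4 groups of 3 libraries.

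Upstream of the members, 21 genes of the activating arm (receptor adaptors, kinases and the ubiquitin machinery that removes IkB) were tested. In siTRIP12 5 fell, 2 rose and 14 were not called, beside 31.9% called among all tested genes; with upper-quartile factors 3 fell and 4 rose, and without siTRIP12 replicate 2 the number that fell was 3. MAP3K14, the gene of the kinase that starts the alternative pathway, fell from 69.5 ± 9.59 to 43.8 ± 1.26 CPM (log2 -0.67 ± 0.08, edgeR adjusted p = 9.62e-06). It was at 71.7 ± 2.46 CPM in siTRIP12+siOTUD5, above siTRIP12 (log2 0.71 ± 0.08, edgeR adjusted p = 1.8e-05), and at 86.1 ± 6.4 CPM in siOTUD5. RIPK1, the gene of the scaffold kinase of TNF receptor signalling, fell in siTRIP12 from 30.7 ± 1.15 to 21.6 ± 0.84 CPM (log2 -0.50 ± 0.07, edgeR adjusted p = 2.38e-05). It fell in siOTUD5 (25.3 ± 0.792 CPM, log2 -0.28 ± 0.07, 0.00723) and in siTRIP12+siOTUD5 (23.5 ± 1.39 CPM, -0.38 ± 0.07, 3.92e-04) too. TAB1, an adaptor of the kinase that activates IkB kinase, fell by log2 -0.30 in siTRIP12, -0.29 in siOTUD5 and -0.46 in siTRIP12+siOTUD5. UBE2V1, a subunit of the enzyme that makes the ubiquitin chains of this pathway, rose by 0.23, 0.20 and 0.26. UBE2N of the same list, named after its values were seen, went the other way. It was called lower in siOTUD5 (log2 -0.20, edgeR adjusted p = 0.0211) and in siTRIP12+siOTUD5 (-0.22, 0.00786). In siTRIP12 it was not called (-0.12, 0.117).

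Of the IkB kinase genes, CHUK, a catalytic subunit, fell by log2 -0.24 ± 0.05 in siOTUD5 (edgeR adjusted p = 0.002). IKBKG, the regulatory subunit, fell by -0.33 ± 0.07 in siTRIP12+siOTUD5 (edgeR adjusted p = 8.98e-04). BTRC, which recognises phosphorylated IkB for ubiquitylation, was higher in siTRIP12+siOTUD5 than in siTRIP12 by 0.34 ± 0.09 (edgeR adjusted p = 0.0117). Over the list, 4 rose and 6 fell in siOTUD5, beside 23.2% of all tested genes called. Without siOTUD5 replicate 1 these counts were 1 and 3, and without siOTUD5 replicate 3 the number that fell was 3. In siTRIP12+siOTUD5 against Scrambled 2 rose and 5 fell (30.9% of all tested genes called). Between siTRIP12+siOTUD5 and siTRIP12 2 rose and 2 fell (15.7% of all tested genes called), and with any 1 library of either group left out, 0 to 2 fell.

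Of 18 genes that restrain the pathway, beyond the members, 7 fell and 2 rose in siTRIP12, beside 31.9% of all tested genes called. The number that rose was 1 or 4 in 7 of 14 alternatives. Among these it was 1 without Scrambled replicate 2, siTRIP12 replicate 1 or siTRIP12 replicate 2, and 4 with upper-quartile factors. TNIP1, a partner of the TNFAIP3 protein, fell from 192 ± 10.1 to 137 ± 7.02 CPM (log2 -0.49 ± 0.05, edgeR adjusted p = 2.43e-06) and was at 176 ± 1.41 CPM in siTRIP12+siOTUD5, above siTRIP12 (0.36 ± 0.05, 1.71e-04). BIRC2, a ubiquitin ligase that keeps the MAP3K14 kinase low, fell by log2 -0.40 ± 0.07 (edgeR adjusted p = 3.98e-04). N4BP1 fell by -0.32 ± 0.07 (0.0023), and OTULIN, a deubiquitylase of linear ubiquitin chains, rose by 0.32 ± 0.07 (0.00107). Against Scrambled, 1 of the 18 rose and 3 fell in siOTUD5, a share near the 23.2% called among all tested genes, and RNF123 rose (log2 0.30) and TAX1BP1, COMMD1 and TNIP2 fell (-0.27, -0.40 and -0.18). In siTRIP12+siOTUD5 against Scrambled, 4 rose and 4 fell, beside 30.9% of all tested genes called; 1 rose without siTRIP12+siOTUD5 replicate 1 and 2 without its replicate 2. CYLD, a deubiquitylase that dampens NF-kB signalling, rose by 0.28 ± 0.06 (edgeR adjusted p = 0.00265). NFKBIZ, an atypical IkB gene, was higher in siTRIP12+siOTUD5 than in siTRIP12 by 0.43 ± 0.11 (edgeR adjusted p = 0.0133).

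Downstream, 36 genes known as NF-kB targets were followed, a list drawn up with earlier results of these data known, so that it is no independent evidence of a direction. Of these, 29 were tested and 7 were not, since none of the 7 exceeded 12 reads in any library. In siTRIP12 18 of the 29 fell, 5 rose and 6 were not called, with a median log2 change of -0.832 beside 0.00686 over all genes, of which 31.9% were called. MMP9, a gelatinase gene, went from 29.5 ± 1.80 to 3.07 ± 0.120 CPM. IL32, a cytokine gene, went from 35.6 ± 3.52 to 10.1 ± 0.621 CPM, and TRAF1, which encodes an adaptor of TNF receptors, from 21.1 ± 1.45 to 6.02 ± 0.647 CPM. SAA1 and SAA2, acute-phase genes so alike that their reads may be shared, were at 3.80 ± 0.385 and 2.13 ± 0.423 CPM in siTRIP12 and at 18.0 ± 1.72 and 9.35 ± 0.483 CPM in Scrambled. Against this direction, CXCL8, a chemokine gene, rose most of the 5, by log2 1.00 (edgeR adjusted p = 1.03e-04). IL1B rose by 0.68 (8.37e-04), CXCL3, another chemokine gene, by 0.57 (0.0208), BCL2L1, an anti-apoptotic gene, by 0.36 (1.64e-05) and CFLAR, which encodes an inhibitor of caspase activation, by 0.32 (0.00233). CXCL8, CXCL3 and CFLAR were named after their values were seen.

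In siOTUD5 the targets were mixed: 8 rose, 6 fell and 15 were not called, with a median of 0.156, beside 23.2% of all tested genes called. IL1B rose from 19.3 ± 1.30 to 55.1 ± 5.78 CPM (log2 1.51 ± 0.13, edgeR adjusted p = 1.32e-06), IL1A from 6.01 ± 0.188 to 12 ± 1.63 CPM (1.00 ± 0.12, 1.57e-05) and IL11 from 82.2 ± 5.68 to 123 ± 6.43 CPM (0.58 ± 0.07, 1.21e-05). MMP9 fell to 15.3 ± 1.64 CPM. Between siTRIP12+siOTUD5 and siTRIP12, 22 of the 29 targets were higher and 7 were not called, with a median of 0.626, beside 15.7% of all tested genes called. SAA1 was at 15.3 ± 1.38 CPM, IL32 at 28.3 ± 2.04 CPM and IL11 at 101 ± 6.27 CPM in the double knockdown. Against Scrambled 9 rose and 11 fell there (30.9% of all tested genes called), with a median of -0.135, and MMP9 was at 6.81 ± 0.373 CPM. When siTRIP12 was added to siOTUD5, 9 fell and 2 rose, beside 8.41% of all tested genes called. EHD1 (log2 -0.49), PLAU, the gene of a urokinase (-0.43), and TAP1, an antigen-transporter gene (-0.52), fell as MMP9 did (-1.16).

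**Figure D5:**
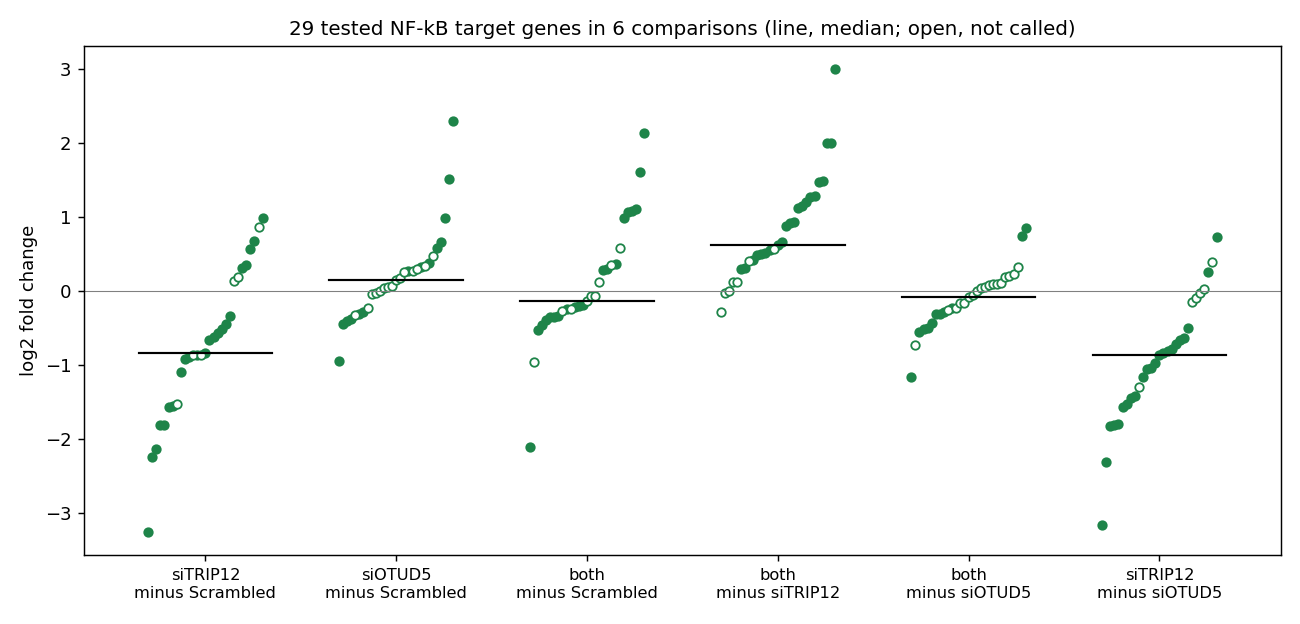
Log2 fold changes (y axis) of the 29 tested NF-kB target genes in 6 comparisons; each point is a gene, ordered by value within a comparison, filled where the edgeR adjusted p was under 0.05, with the median as a line, and "both" is siTRIP12+siOTUD5. The median is -0.832 in siTRIP12 minus Scrambled, 0.626 in both minus siTRIP12 and 0.156 in siOTUD5 minus Scrambled, and the points spread to both sides of 0 in the first and the third.

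The members lie on different chromosomes or apart on the same one (GRCh38; RELA on chromosome 11, NFKB1 on 4, NFKB2 on 10, REL on 2, NFKBIA on 14, NFKBIE and TNFAIP3 on 6, and RELB, NFKBIB and BCL3 on 19). On chromosome 19, BCL3 (44747705 to 44760044) and RELB (45001464 to 45038192) are near each other, and their changes were not alike: in siTRIP12 RELB fell while BCL3 had log2 0.04. Annotated genes that overlap a member had at most 25.5 reads per library on average (NFKB1-AS1, beside 3319 reads for NFKB1).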

How the data were processed

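RNA from 12 HT1080 libraries in 4 groups of 3 had been sequenced from stranded poly(A) libraries, per the labels' protocols. The cell line label counts upward from HT1080 over the samples, while the design text names HT1080 alone, which is used here. The submitters' processing notes name HISAT2, StringTie and GRCh38 without versions; how reads were assigned is not given in the sources used here. The deposited table holds read counts per gene, as whole numbers made by the authors. It also holds FPKM, scaled by the authors to transcript length and library size and used here only to compare levels between genes, and TPM made by the authors, which were not used.

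Counts were fitted in R 4.3.3 with edgeR 4.0.16 (quasi-likelihood, robust, TMM factors, a mean per group, all 12 libraries, 8 residual degrees of freedom). filterByExpr kept 16283 of 46427 genes and removed 30144. Tests were adjusted by Benjamini-Hochberg over all genes tested and called under 0.05. CPM uses the TMM-adjusted totals. SE and approximate 95% intervals come from the same fit. For the targeted genes, an exact permutation test (two-sided) was run as well. Library totals were 37912312 to 43881471 reads, and among the members the SE was largest for REL and TNFAIP3. The part of counting error in the spread of each member was not worked out. Scripts were tested on simulated data.

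The members, their roles and the gene lists were chosen with earlier results of these data known, so no p is given for a score or list over members. All 10 members are described. From the activating, restraining and target lists up to 4 called genes with the smallest p per comparison are named, with their values in other comparisons where these help. Named likeness genes are the 5 with the highest r. Alternatives were 2 other scalings (size factors of DESeq2 1.42.0, upper-quartile), 2 other filters (none, or a mean of at least 50 reads), the replicate number as a block, 2 other tests (limma-voom with limma 3.58.1, DESeq2), a fit restricted to the groups in question, and each library left out in turn. Replicates of a group differed by more than sampling noise. Sequences and windows are from RefSeq.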

Additional observations from a re-analysis of the deposited data

Results flagged for a closer look

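The following genes responded differently to siTRIP12 with and without siOTUD5, by the interaction test of edgeR with adjustment over all genes. Over all genes tested 8.16% passed. Values are log2 differences, positive where the change with siTRIP12 was higher in the presence of siOTUD5. Among the members, RELB had 0.54 (adjusted p = 0.022) and NFKBIA 0.58 (0.00213). In the activating arm, RIPK1 had 0.40 (0.0179), MAP3K14 0.40 (0.0388) and CUL1 0.23 (0.0493). These were the 3 genes of the list that passed, and over 19 alternatives the number of its genes that were higher by this test ranged from 0 to 3, with 0 or 1 in 11 of them. In the restraining arm, TNIP1 alone passed, with 0.35 (0.00771). Among the 29 targets tested 14 were higher and 1 lower by this test, and the lower one was BCL2L1 at -0.32 (0.00606). Those with the smallest p were SAA1, which had 2.46 (4.66e-08), SAA2 2.33 (4.86e-07), MMP9 2.10 (1.42e-07) and IL32 1.76 (4.55e-07). TRIP12 itself had 0.38 (0.0489), as its level was higher in siTRIP12+siOTUD5 than in siTRIP12, and the part of this in the other differences was not tested.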

How the results depend on the processing

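Over 31 called changes of members in the 7 comparisons, 394 of 444 values under the alternatives kept direction and call, 50 kept the direction and lost the call, and 0 reversed. Of 586 values for changes that were not called, 550 stayed so in the same direction, 11 became called and 25 changed sign, none of these beyond 0.0735 in size. The falls of NFKBIA, TNFAIP3 and RELB in siTRIP12, their rises from siTRIP12 to siTRIP12+siOTUD5, and the falls of NFKBIB with siOTUD5 were called under every alternative run.

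A fit of only the groups compared moved the calls between siTRIP12+siOTUD5 and siOTUD5 from 1370 to 2936 genes and from 0 to 2 members. With each library left out, that comparison gave 692 to 932 genes, siTRIP12+siOTUD5 minus siTRIP12 gave 1495 to 2057 and the interaction 734 to 1794. Members called ranged from 3 to 6 in siTRIP12, 1 to 5 in siOTUD5 and 1 to 3 in the interaction. The cause of these shifts was not tested. With upper-quartile factors RELA in siTRIP12+siOTUD5 minus Scrambled was at 0.0146 and REL in siTRIP12 minus siOTUD5 at 0.0027, both changed in sign. Left-out libraries changed signs within these ranges of the log2 difference. RELA ranged from -0.0717 to 0.0209 in siTRIP12+siOTUD5 minus Scrambled, from -0.0133 to 0.0787 in siOTUD5 minus Scrambled and from -0.0174 to 0.0860 in the interaction. REL ranged from -0.0958 to 0.0679 in siTRIP12 minus siOTUD5 and from -0.0384 to 0.302 in the interaction. BCL3 ranged from -0.0298 to 0.0952 in siTRIP12 minus Scrambled and from -0.154 to 0.0112 in siTRIP12+siOTUD5 minus siOTUD5. In the latter NFKBIE ranged from -0.0569 to 0.1045 and RELB from -0.0735 to 0.107. NFKB1 ranged from -0.0161 to 0.0555 in siTRIP12+siOTUD5 minus Scrambled, and NFKBIA from -0.00926 to 0.102 in siOTUD5 minus Scrambled.

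Same-numbered libraries of different groups did not deviate together (18 pairs, r from -0.0734 to 0.0473). With the replicate block the calls of NFKB2 in siOTUD5 (0.16, adjusted p = 0.0549), BCL3 in siTRIP12+siOTUD5 minus Scrambled (0.29, 0.0592) and REL in siTRIP12+siOTUD5 minus siTRIP12 (0.44, 0.0677) were lost, and no other call of a member changed. All 40 mean levels stayed within 1 SD with DESeq2 size factors and with upper-quartile factors. Upper-quartile factors turned the split of higher and lower genes in siTRIP12 from 2367 and 2827 to 2964 and 2232. With 3 libraries a group, small changes of TNFAIP3, BCL3, NFKBIE and REL, the 4 members with the fewest reads, were the hardest to resolve.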
